A study of Mus musculus with 8 samples.

Results

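Interferon-stimulated genes were examined in the colonic epithelium of mice over the day. The 48 genes described here were chosen by name, as sensors of viral RNA, antiviral effectors, guanylate-binding proteins and antigen-processing genes. They are 48 of the 14247 genes in the deposited table. They were selected on values of these same libraries, in which the family had drawn attention mainly through its difference between ZT18 and ZT0. Each comparison of time points for these genes is therefore a description, and none is used as evidence for the pattern. The members were split by textbook knowledge into 36 type I-like genes, typical of the response to type I interferon, and 12 gamma-like genes, typical of the response to interferon gamma. Most genes of the second class also respond to type I interferon.

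RNA was sequenced from colonic crypts of wild-type (WT) mice, which according to the methods of the study were on a C57BL/6 background and 2 to 4 months old. They were kept under 12 h of light and 12 h of dark. Crypts were collected at zeitgeber time (ZT) 0, when the lights go on, and at ZT6, ZT12 and ZT18, with 2 libraries per time point and no treatment in any group. The crypts were detached with EDTA and not sorted, so the libraries can hold cells other than epithelium, and the labels name no sex, batch or animal, so that p-values measure only the spread between these libraries. The captions of the study name more mice per time point than the table holds libraries, and the sources used here do not give which animals, or how many, stand behind a library.

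Interferons are secreted by cells that sense viral nucleic acid or by activated lymphocytes. Type I and type III interferons act through a complex that holds STAT2 and IRF9 and binds the interferon-stimulated response element (ISRE). Interferon gamma acts mainly at the gamma-activated site (GAS). In the gut the epithelium answers to all 3 types, and it holds a low level of these transcripts without infection.

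Over the 14247 genes of the deposited table, the libraries summed to between 14722342 and 25159440 reads, recovered from the deposited values. Of the signal summed over these genes, 6.68% to 22.2% came from the mitochondrial genome. Values are normalised counts, that is reads divided by a size factor per library. All 8 epithelial markers were present in every library, with Epcam between 26490 and 33700 normalised counts. ZT0 replicate 2 and ZT12 replicate 1 stood apart: summed B and plasma cell markers reached 1513 in ZT0 replicate 2 against 35.8 in ZT0 replicate 1, and summed smooth muscle markers reached 3672 in ZT12 replicate 1 against 229 in ZT12 replicate 2. Counts by time point, counts of separated libraries, some class medians and limma calls are given below with and without these libraries. The other results are given with all 8 libraries.

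Sequences upstream of the start were read first, since they are independent of the libraries. In the RefSeq promoter table of GRCm38.p6, which gives 250 bases before and 50 bases after each start, 38 of the 48 members were found. Parp9, Nlrc5, Usp18, Zbp1, Oas2, Iigp1, Rtp4, Tap2, Dhx58 and Parp14 were not matched. The ISRE core was searched as GAAA, any 2 bases and GAAA, on either strand. It was present in 18 of 38 members (47.4%), against 3.44% of all 32851 promoters of that length and 3.65% of the tested genes with a promoter. It was found in 13 of 29 type I-like members (44.8%) and 5 of 9 gamma-like members (55.6%). The GAS letters were searched as TTC, any 3 bases and GAA on either strand. They were present in 9 of 38 members (23.7%), against 8.3% of all promoters and 8.46% of the tested genes with a promoter. They were found in 5 of 29 type I-like members (17.2%) and 4 of 9 gamma-like members (44.4%), the latter being Gbp7, Igtp, Irf1 and Psmb8. Bst2, Eif2ak2, Gbp7, Igtp and Oas1a held both motifs.

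Of the 15 members with an ISRE core upstream of the start, 10 were picked for printing: 7 whose transcript values are given below, Oas1a, whose upstream cores reach nearest to the start, and the gamma-like genes Gbp7 and Igtp, which hold both motifs. The cores of Stat2 and Gbp3, the first of them at -222 and -45, are among those not printed. Capitals mark the ISRE core, overlapping matches run together, and the sequence is on the strand of the gene, 5′ to 3′.
Isg15, chr4:156200861-156200910, minus strand: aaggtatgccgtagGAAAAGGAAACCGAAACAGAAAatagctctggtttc
Ifit1, chr19:34640771-34640827, plus strand: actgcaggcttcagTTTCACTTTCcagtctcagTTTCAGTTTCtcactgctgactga
Ifit3, chr19:34583393-34583430, plus strand: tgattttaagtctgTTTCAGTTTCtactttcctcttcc
Oas1a, chr5:120907526-120907559, minus strand: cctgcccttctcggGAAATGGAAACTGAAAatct
Oas3, chr5:120777711-120777748, minus strand: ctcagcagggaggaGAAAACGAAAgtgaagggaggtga
Bst2, chr8:71537573-71537616, minus strand: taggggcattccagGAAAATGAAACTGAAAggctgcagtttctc
Trim30a, chr7:104465206-104465243, minus strand: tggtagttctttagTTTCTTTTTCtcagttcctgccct
Gbp7, chr3:142530269-142530306, plus strand: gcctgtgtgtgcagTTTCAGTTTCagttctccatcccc
Igtp, chr11:58199508-58199545, plus strand: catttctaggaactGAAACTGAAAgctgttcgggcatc
Ddx60, chr8:61928054-61928086, plus strand: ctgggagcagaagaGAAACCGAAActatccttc

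The first base of the printed matches lay between -130 in Bst2 and -14 in Oas1a, counted from 0 at the RefSeq start. Further cores at -53 in Ddx60, at -156 in Ifit3 and at 2 in Trim30a lie outside the printed stretches. Isg15 held 3 overlapping cores, at -78, -72 and -66 bases. Ifit1 held separate cores at -104 and -85. In the coordinates of the GENCODE M21 annotation, Ifit2, Ifit3 and Ifit1 lay beside each other on chromosome 19, Gbp7, Gbp3 and Gbp2 on chromosome 3, Oas2, Oas3 and Oas1a on chromosome 5, and Psmb9, Tap1, Psmb8 and Tap2 on chromosome 17. Dtx3l and Parp9 overlapped on opposite strands, as did Psmb9 and Tap1. Igtp overlapped Irgm2, Irf9 overlapped Rnf31 and Irf7 overlapped Phrf1. Since it is not stated whether reads were counted by strand, the split of reads between such partners is uncertain, as it is between the close copies Ifit3 and Ifit3b or Oas1a and Oas1g.

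**Figure D1:**
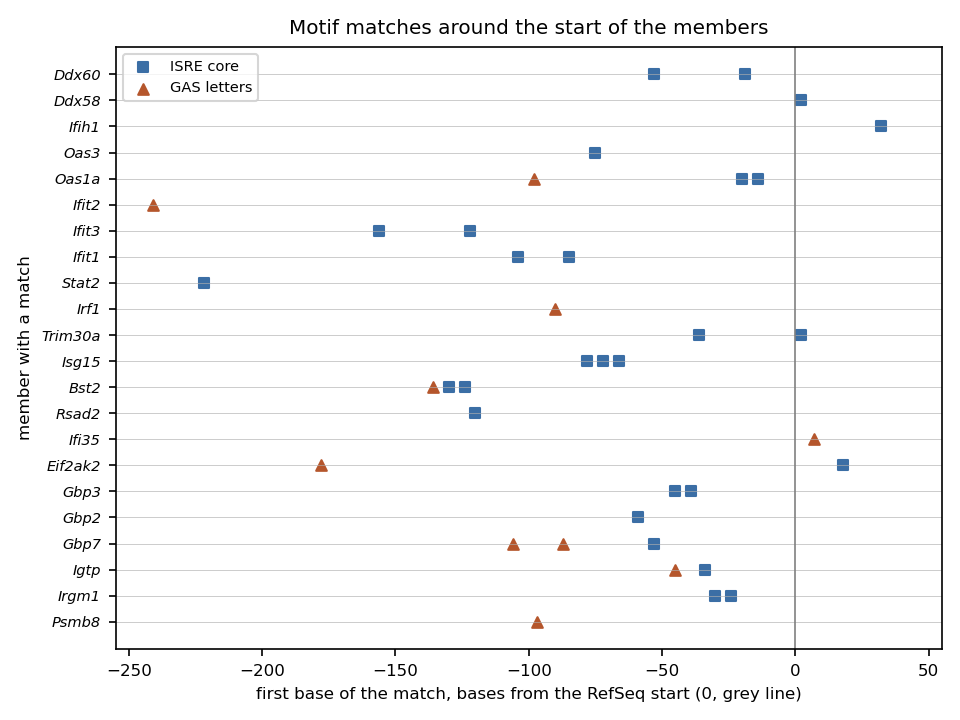
Positions of the ISRE core and of the GAS letters around the start of the 22 members that hold either; the x axis gives the first base of each match in bases from the RefSeq start and each row is a gene. Most ISRE cores lie upstream of the start, from -222 in Stat2 to -14 in Oas1a.

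Over the day, the members as a group were lowest at ZT0, intermediate at ZT6, low in 1 of the libraries of ZT12 and highest at ZT18. The ZT18 mean was the highest of the 4 time points in 41 of 48 members (85.4%), against 23.6% of the 13503 genes tested, and ZT6 was highest in the other 7. The ZT0 mean was the lowest in 33 members (68.8%), against 24.3% of the genes tested, ZT12 in 10 and ZT6 in 5. These member counts use means of normalised counts, but the shares of genes tested use means of log2(normalised count + 1). They are therefore not strictly alike. On the log2 scale Ifit3, for example, was higher at ZT18 than at ZT6, by 0.07. The counts of means without 2 libraries, given below, use log2 means for members and for all genes. By library, 37 members had their highest value in ZT18 replicate 1 and 5 in ZT18 replicate 2. The lowest value fell in ZT0 replicate 1 for 22 members, in ZT12 replicate 1 for 15 and in ZT0 replicate 2 for 9. Both ZT18 libraries lay above the 6 other libraries in 29 of 48 members, a pattern seen in 4.07% of the genes tested. Without ZT0 replicate 2 and ZT12 replicate 1, the ZT18 mean was highest in 40 members (23% of the genes tested) and the ZT0 value lowest in 46 (28.8%), and both ZT18 libraries lay above the remaining 4 in 29 (8.13%). All these counts restate the values on which the genes were selected.

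**Figure D2:**
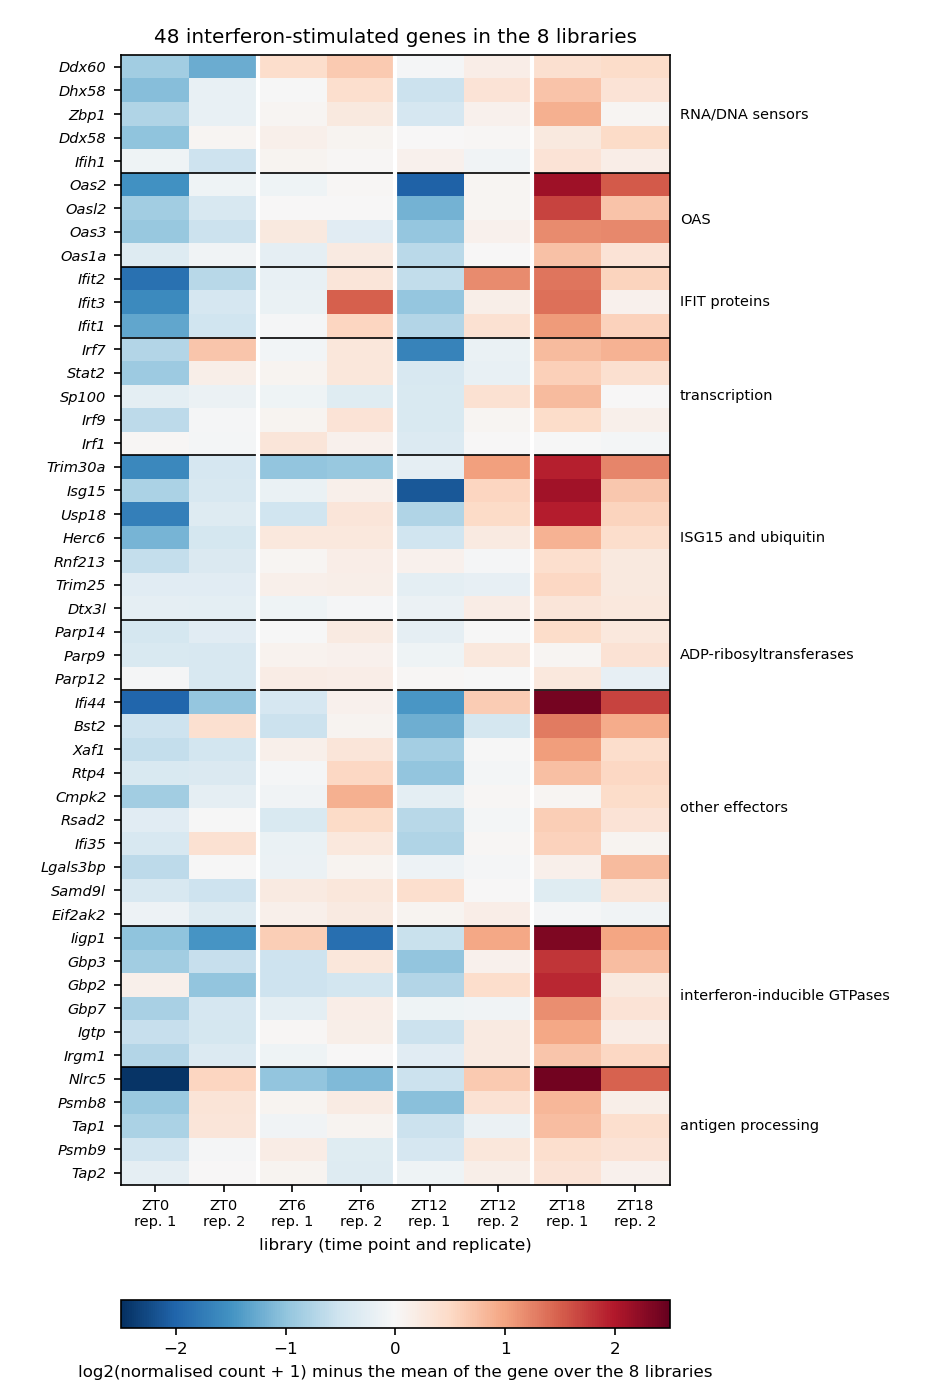
Each row is a member, ordered by role and by its variation, and each column a library; colour gives log2(normalised count + 1) minus the mean of the gene over the 8 libraries. The ZT18 columns are red in most rows, ZT0 replicate 1 and ZT12 replicate 1 are blue in most rows, and Irf1, Eif2ak2 and Samd9l stand outside the pattern.

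The sensors detect viral nucleic acid in the cytosol and start interferon production. Ddx60, a helicase linked to RNA sensing, had 569 and 443 normalised counts (ZT0), 1422 and 1643 (ZT6), 1028 and 1166 (ZT12) and 1382 and 1429 (ZT18). Both ZT0 libraries were below all 6 others, and the later time points did not return to that level. Dhx58, which encodes the RIG-I-like receptor LGP2, had 94.4 and 174 (ZT0), 198 and 267 (ZT6), 138 and 253 (ZT12) and 327 and 255 (ZT18). Its ZT0 libraries overlapped with ZT12 and lay below ZT6 and ZT18. The other sensors, Ddx58 (RIG-I), Ifih1 (MDA5) and Zbp1, ranged up to 3.15-fold between their lowest and highest libraries.

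The 2′-5′-oligoadenylate synthetases make the second messenger that activates RNase L. Oas2 had 104 and 278 (ZT0), 277 and 306 (ZT6), 73 and 310 (ZT12) and 1308 and 869 (ZT18). Oasl2 had 1242 and 1706 (ZT0), 2269 and 2268 (ZT6), 1003 and 2350 (ZT12) and 7262 and 3700 (ZT18). In both genes each ZT18 library was above every other library, and ZT12 replicate 1 was the lowest of all. Oas3 had almost equal values at ZT18 (1781 and 1788) after 399 to 929 in the 6 other libraries, and the 4 genes of this role had a median log2 difference of 1.88 between ZT18 and ZT0.

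The IFIT proteins bind viral RNA that lacks the marks of the host. Ifit2 had 83.4 and 188 (ZT0), 267 and 375 (ZT6), 199 and 689 (ZT12) and 768 and 450 (ZT18). Ifit3 had 82.4 and 186 (ZT0), 223 and 708 (ZT6), 127 and 277 (ZT12) and 648 and 268 (ZT18). Ifit2 was below the 6 other libraries in both ZT0 libraries, whereas Ifit3 was highest in ZT6 replicate 2. The ZT0 libraries of Ifit3 overlapped with ZT12 and lay below ZT6 and ZT18, and its 3 later time points overlapped each other. Ifit1, the most abundant of the 3 per kilobase of exon, had 533 and 932 at ZT0 and 2736 and 1947 at ZT18.

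The transcription factors of this family carry or amplify the interferon signal. Irf7, which drives further interferon expression, had 3321 and 8931 (ZT0), 5258 and 6669 (ZT6), 1727 and 4932 (ZT12) and 9459 and 9989 (ZT18). Both ZT18 libraries were the highest of the 8, but ZT0 replicate 2 came close to them and far from ZT0 replicate 1. Stat2, a subunit of the factor that binds the ISRE, had 563 and 1176 (ZT0), 1110 and 1285 (ZT6), 802 and 927 (ZT12) and 1597 and 1387 (ZT18). Irf9, the DNA-binding partner in that factor, had 587 and 909 at ZT0 and 1276 and 1006 at ZT18. Irf1, a primary target of interferon gamma, went against the group: it ranged from 2683 in ZT12 replicate 1 to 4206 in ZT6 replicate 1, and its log2 difference between ZT18 and ZT0 was -0.01 ± 0.18 (SE, n = 2 libraries per time point). Without ZT0 replicate 1 that difference was 0.03, and without ZT18 replicate 2 it was 0.01.

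Isg15 encodes a ubiquitin-like modifier that is attached to proteins during the interferon response. It had 343 and 447 normalised counts (ZT0), 529 and 645 (ZT6), 136 and 859 (ZT12) and 2543 and 944 (ZT18). The ZT18 libraries were the highest of the 8 but differed from each other, and the ZT12 libraries spanned the values of ZT0 and ZT6. Trim30a, a member of the tripartite motif family of regulators, had 74.5 and 172 (ZT0), 116 and 120 (ZT6), 197 and 472 (ZT12) and 886 and 536 (ZT18). Unlike most members, its ZT6 values lay between its ZT0 values. Usp18, which removes ISG15 and restrains the type I receptor, had 32.8 and 87.7 at ZT0 and 430 and 162 at ZT18. Trim25, a ubiquitin ligase acting on RIG-I, was steady by comparison, at 2903 and 2897 at ZT0 and 5057 and 4191 at ZT18.

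Parp14 and Parp9 encode ADP-ribosyltransferase family proteins of the antiviral response and varied little. Parp14 had 1394 and 1556 (ZT0), 1887 and 2213 (ZT6), 1624 and 1880 (ZT12) and 2586 and 2277 (ZT18). Parp9 had 986 and 968 (ZT0), 1365 and 1383 (ZT6), 1195 and 1526 (ZT12) and 1328 and 1639 (ZT18). In both genes the ZT0 libraries were the lowest of the 8. Dtx3l, the ubiquitin ligase that pairs with Parp9 and shares a start region with it, had 1089 and 1065 at ZT0 and 1568 and 1531 at ZT18.

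Among the remaining effectors, Ifi44, an interferon-induced cytosolic protein, had the largest fitted difference between ZT18 and ZT0 of the whole list. It had 39.7 and 82.1 normalised counts (ZT0), 120 and 174 (ZT6), 58.1 and 251 (ZT12) and 848 and 524 (ZT18). Both ZT18 libraries were above every other library, and the fitted difference from ZT0 was 11.5-fold. Bst2 (tetherin), which holds budding virus at the cell surface, had 299 and 564 (ZT0), 296 and 447 (ZT6), 183 and 312 (ZT12) and 1058 and 816 (ZT18). It was one of the few members that were lower at ZT6 and ZT12 than at ZT0. Eif2ak2, the kinase PKR, and Samd9l, a translation regulator, were lowest at ZT0 but did not peak at ZT18: Eif2ak2 ranged from 741 to 1088, and Samd9l was 1755 and 2681 at ZT18 against 2918 in ZT12 replicate 1.

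The interferon-inducible GTPases act on vacuoles of intracellular pathogens. Iigp1 had 20.9 and 14.9 (ZT0), 66.5 and 10.9 (ZT6), 29 and 85.3 (ZT12) and 221 and 86.1 (ZT18). It was the least abundant member per kilobase of exon, and its lowest value was in a ZT6 library. Gbp3 had 83.4 and 103 (ZT0), 106 and 187 (ZT6), 76.8 and 165 (ZT12) and 526 and 261 (ZT18), with both ZT18 libraries above the rest. Gbp2 differed most between the ZT18 libraries, at 1566 and 499.

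The antigen-processing genes load peptides on MHC class I. Nlrc5, the transactivator of MHC class I genes, had 10.9 and 94.2 (ZT0), 32 and 29.4 (ZT6), 44 and 102 (ZT12) and 349 and 179 (ZT18). Psmb8, a catalytic subunit of the immunoproteasome, had 214 and 509 (ZT0), 425 and 470 (ZT6), 197 and 522 (ZT12) and 724 and 449 (ZT18). Nlrc5 was highest in both ZT18 libraries, while ZT18 replicate 2 of Psmb8 lay below ZT0 replicate 2. Tap2, a subunit of the peptide transporter, ranged from 307 to 483, or 1.57-fold.

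Levels between genes are compared per kilobase of exon, as a mean over the 8 libraries. Irf7 was the most abundant member at 1665 normalised counts per kilobase, at percentile 96.5 of the genes tested, followed by Lgals3bp (1221), Isg15 (1066) and Oas1a (1042). Iigp1 and Nlrc5 were the lowest at 11.5 and 12.4, near percentiles 14.7 and 15.6. The spread between the lowest and the highest library ran from 1.47-fold in Eif2ak2 and Dtx3l to 31.9-fold in Nlrc5.

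The fit across all genes with a mean of at least 10 normalised counts used limma on log2(normalised count + 1), and all 48 members passed that filter. Beside each count, the share of all 13503 genes called in the same comparison is given as background, and nothing is read from it since the comparisons chose the genes. For ZT6 against ZT0, 43 of 48 members were higher, with a median log2 difference of 0.55 against 0.01 over all genes. Only Ddx60 was called (0.0444% of all genes), at a log2 difference of 1.60 ± 0.19 (SE, n = 2 libraries per time point) and a Benjamini-Hochberg adjusted p of 0.0264 by limma. It was higher in both ZT6 libraries than in both ZT0 libraries. At an unadjusted p under 0.05 there were 12 members and 557 genes in all. Ddx60 was also the 1 member called over the 4 time points (0.0889% of all genes), at an adjusted p of 0.0498 by limma. The ZT6 call was lost when any 1 of the libraries of ZT0, ZT6 or ZT12 was left out (adjusted p by limma between 0.0531 and 0.749) and held when either ZT18 library was (0.0367 and 0.0300). It was also lost with the replicate number as a block (0.0912), without the trend (0.353) and in a fit of the 4 libraries concerned (0.0664). The call over the 4 time points was lost without any 1 of the 8 libraries (adjusted p by limma between 0.0555 and 0.325), with the block (0.111) and without the trend (0.393). It was lost as well with TMM (0.0524), with a pseudocount of 0.1 (0.0566), with scaling outside the mitochondrial genome (0.0708) and by edgeR (0.0995).

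For ZT18 against ZT0, 47 of 48 members were higher, with a median log2 difference of 0.90, while the median over all genes was 0.00. No member and no other gene was called by limma (0% of all genes). At an unadjusted p under 0.05 there were 36 members and 678 genes in all. The smallest adjusted p of a member was that of Ddx60, 0.0841 by limma. The largest differences on the log2 scale were those of Ifi44 (3.52 ± 0.64), Nlrc5 (2.90 ± 0.87), Iigp1 (2.90 ± 0.89), Oas2 (2.64 ± 0.64) and Trim30a (2.60 ± 0.49). On leaving out 1 library, that of Nlrc5 ran from 1.40 without ZT0 replicate 1 to 4.40 without ZT0 replicate 2, and that of Iigp1 from 2.22 without ZT18 replicate 1 to 3.57 without ZT18 replicate 2. Those of Ifi44, Oas2 and Trim30a ran from 3.01 to 4.03, from 1.94 to 3.34 and from 2.00 to 3.19, so the order among these genes depended on the libraries. By role, the median was 1.88 for the oligoadenylate synthetases, 1.74 for the IFIT genes, 1.47 for Isg15 and the ubiquitin genes, 1.42 for the GTPases, 0.94 for the sensors, 0.79 for the other effectors and for antigen processing, 0.63 for the transcription factors and 0.59 for the ADP-ribosyltransferases.

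ZT12 against ZT0 gave a smaller difference, with 37 members higher, a median of 0.28 and none called by limma (0.0667% of all genes, 7 members and 1345 genes at an unadjusted p under 0.05). Bst2 (-0.78 ± 0.37) and Irf7 (-0.90 ± 0.52) had the lowest values. ZT12 against ZT6 was the only pair in which most members had lower values, 39 of 48, with a median of -0.30 and none called (0% of all genes, 3 members and 915 genes at an unadjusted p under 0.05 by limma). Trim30a was the highest exception, at 1.36 ± 0.49. ZT18 against ZT6 had 42 members higher, a median of 0.43 and none called (0.0444% of all genes, 12 members and 906 genes at an unadjusted p under 0.05 by limma). ZT18 against ZT12 had 46 members higher, a median of 0.76 and none called (0.0296% of all genes, 22 members and 1219 genes at an unadjusted p under 0.05 by limma). These comparisons share libraries, so their values are not independent of each other.

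A cosine with a period of 24 h called no member (0.118% of all genes, 4 members and 1235 genes at an unadjusted p under 0.05 by limma). The smallest adjusted p of a member in that fit was 0.271.

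**Figure D3:**
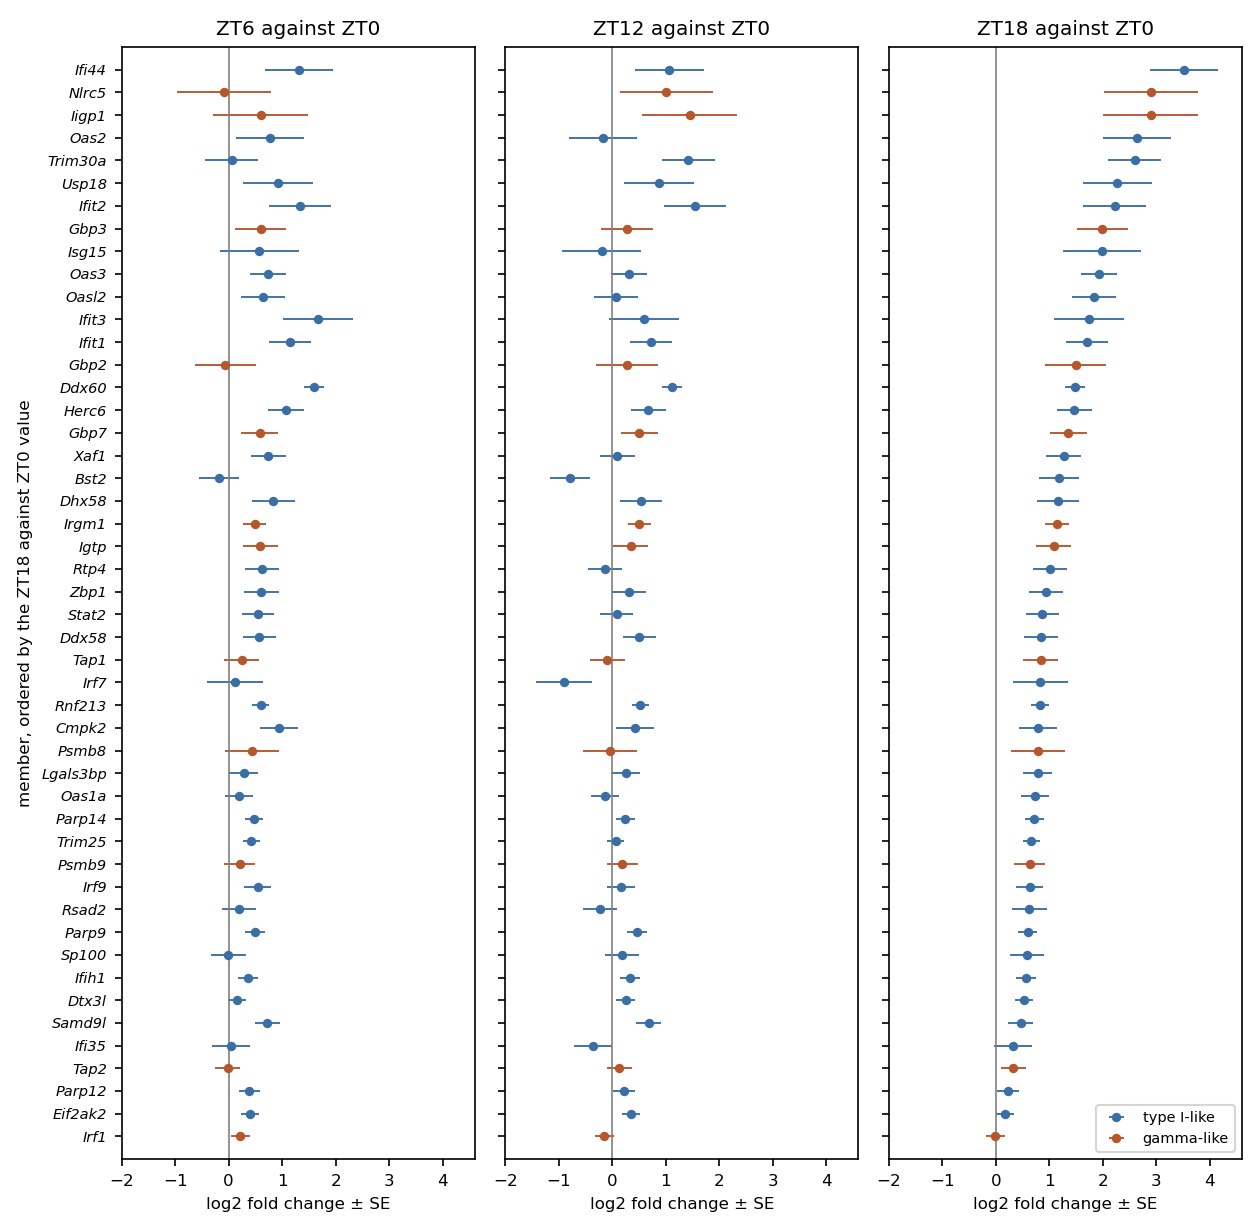
Log2 fold change of each member at ZT6, ZT12 and ZT18 against ZT0 from the limma fit; points are estimates from 2 libraries per time point, bars are standard errors, and colour gives the class. At ZT18 all members but Irf1 lie to the right of 0, while at ZT12 Irf7 and Bst2 lie furthest to the left.

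The number of calls depended on the count model. DESeq2, run on whole reads recovered from the normalised counts, called 1 member for ZT6 against ZT0 (0.189% of the genes it tested), 1 in the ZT12 to ZT0 contrast (1.24%) and 13 in the ZT18 to ZT0 contrast (0.407%). It called 0 for ZT12 against ZT6 (0.325%, with 5 members at an unadjusted p under 0.05), 3 for ZT18 against ZT6 (0.504%) and 5 for ZT18 against ZT12 (0.733%). Over the 4 time points it called 13 members (1.61%), and in the cosine 2 (1.62%), which were Nlrc5 and Trim30a. The 13 called for ZT18 against ZT0 were Ddx60, Gbp3, Herc6, Ifi44, Ifit1, Ifit2, Irgm1, Oas2, Oas3, Oasl2, Rnf213, Trim25 and Trim30a, all higher at ZT18. The quasi-likelihood test of edgeR on the same reads called Ddx60 for ZT6 against ZT0 and no member elsewhere. The share of all genes called by edgeR is not given here, so nothing is read from that count.

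Separation of the libraries was counted without a model. Both ZT18 libraries were above both ZT0 libraries in 44 of 48 members (13.6% of all genes). ZT6 was above ZT0 in 30 (18.9%), ZT12 above ZT0 in 15 (20.7%), and ZT12 above ZT6 in 2 (23.5%), while ZT12 was below ZT6 in 13 (22.2%). ZT18 was above ZT6 in 34 (19.2%) and above ZT12 in 35 (17.8%). The 4 members whose ZT18 and ZT0 libraries overlapped were Ifi35, Irf1, Parp12 and Psmb8.

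The 2 libraries of a time point differed in a shared direction across members. At ZT12, replicate 2 exceeded replicate 1 in 44 of 48 members, by a median log2 difference of 0.71, and 16 members differed 2-fold or more (10.4% of all genes did so either way). At ZT0, replicate 2 was higher in 37 members, with a median of 0.40 and 13 members at 2-fold or more (14.9%). At ZT6 the median was 0.15 and 2 members passed 2-fold (7.09%), Ifit3 upwards and Iigp1 downwards. At ZT18, replicate 2 was lower in 40 members, with a median of -0.37 and 6 members at 2-fold or more (18.1%). The largest gap within ZT0 was that of Nlrc5 (10.9 and 94.2 normalised counts), and within ZT12 that of Isg15 (136 and 859). The gap within ZT12 was thus about as large as the median difference of 0.76 between ZT18 and ZT12.

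The type I-like and gamma-like classes ran together. The median deviation of the type I-like members from their own mean, on the log2 scale, was -0.69 and -0.33 (ZT0), -0.02 and 0.23 (ZT6), -0.46 and 0.05 (ZT12), and 0.72 and 0.42 (ZT18). That of the gamma-like members was -0.76 and -0.20, -0.02 and 0.04, -0.53 and 0.22, and 0.90 and 0.34 in the same order. For ZT18 against ZT0 the medians were 0.86 for the type I-like and 1.11 for the gamma-like members. For ZT6 against ZT0 they were 0.58 and 0.34, and the 12 members with an unadjusted p under 0.05 in that comparison (4.13% of all genes had one) were all type I-like. For ZT12 against ZT6 the medians were -0.35 for the type I-like and -0.05 for the gamma-like members. For ZT18 against ZT6 they were 0.38 and 0.63. In that pair, 6 of 36 type I-like and 6 of 12 gamma-like members had an unadjusted p under 0.05 by limma (6.71% of all genes). Whether the 2 classes differed was not tested.

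**Figure D4:**
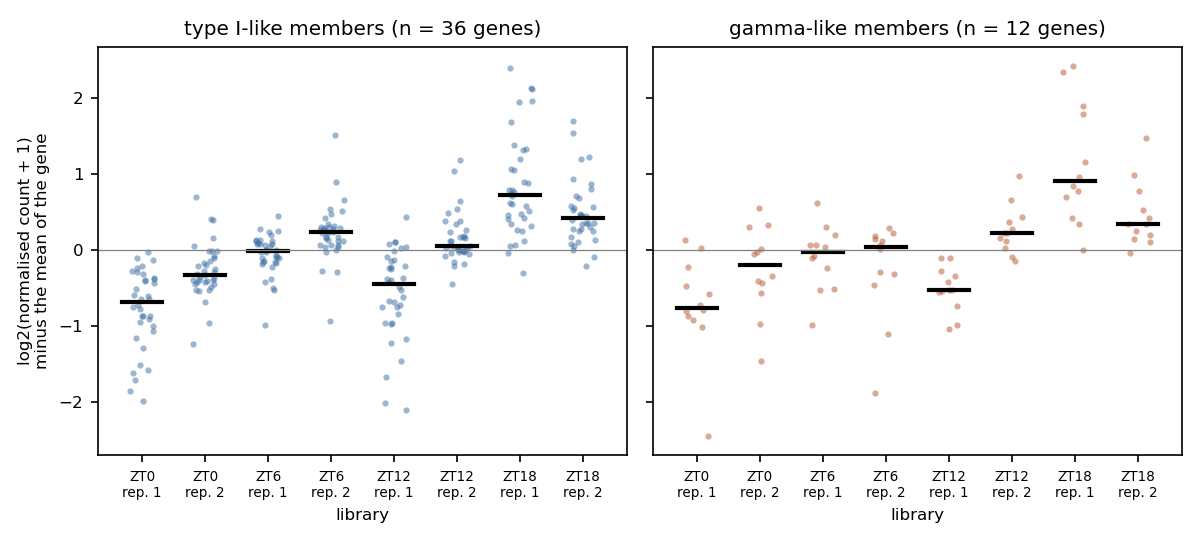
Points are members, bars are class medians, and the y axis gives log2(normalised count + 1) minus the mean of the gene over the 8 libraries. Both classes have their lowest median in ZT0 replicate 1 and their highest in ZT18 replicate 1, at 0.72 for type I-like and 0.90 for gamma-like members.

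Across the 8 libraries, the correlation of each member with the mean of the other 47 had a median of 0.86, was over 0.8 in 28 members and over 0.9 in 17. It was highest for Ifi44 (0.98) and Ifit1 (0.98) and under 0.5 for Samd9l (0.12), Eif2ak2 (0.22), Irf1 (0.26) and Parp12 (0.33). The points share libraries and scaling, so this is a description. Of genes outside the list with a mean of at least 50 normalised counts, those most like the mean z-score of the members were Riok3 (0.98), Map7d1 (0.97), Trafd1 (0.95), Irgm2 (0.95), Chchd7 (0.94), Slfn4 (0.94), Apol6 (0.94), Mapk3 (0.93), Phf11b (0.93) and Dpep1 (0.93). Slfn4 had 1223 and 2620 normalised counts at ZT0 and 7187 and 4500 at ZT18, whereas Riok3 moved only between 2405 and 3666.

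None of 8 interferon genes sought, of type I, type II and type III, was among the 14247 genes of the table, whose lowest mean was 6.55 normalised counts. All 6 receptor genes were present and none was called in any comparison by limma. Ifngr1 and Ifngr2, the receptor of interferon gamma, ranged from 5033 to 7724 and from 2508 to 3269. Ifnar1, of the type I receptor, ranged from 723 to 910, while Ifnar2 was low and uneven, at 6.84 to 92.3. Ifnlr1, of the type III receptor, had 331 and 299 at ZT0 and 470 and 394 at ZT18 (log2 difference 0.45 ± 0.22), and its partner Il10rb ranged from 1197 to 1658. At an unadjusted p under 0.05 by limma, 0 of the 6 passed for ZT18 against ZT0 (5.02% of all genes).

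Signal transduction was followed in 8 genes. Between ZT18 and ZT0, the kinases Jak1, Jak2 and Tyk2 had log2 differences of -0.15 ± 0.19, 0.22 ± 0.16 and -0.24 ± 0.18, Stat3 of -0.03 ± 0.16, and the inhibitors Socs1, Socs3, Pias1 and Ptpn2 of -0.45 ± 0.58, -0.41 ± 0.62, -0.09 ± 0.19 and -0.14 ± 0.20. The median of the 8 was -0.15. That of 13 genes listed around the induction of interferon, among them Mavs, Tbk1, Irf2 and Irf3, was 0.11. No gene of either list was called in any comparison by limma, DESeq2 or edgeR. At an unadjusted p under 0.05 in limma, 0 of the 8 and 0 of the 13 passed for ZT18 against ZT0.

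Of 65 further interferon-stimulated genes written down beside the members, 54 were in the table and 51 passed the filter. For ZT18 against ZT0, 44 of the 51 were higher (6701 of all 13503 genes were), with a median log2 difference of 0.52. None was called by limma (0% of all genes). At an unadjusted p under 0.05 by limma there were 16, all higher (5.02% of all genes passed, in either direction). Slfn5 (2.45 ± 0.70) and Gbp6 (1.88 ± 0.52) were among the higher values, and Plscr1 (-0.02 ± 0.15) and Aim2 (-0.12 ± 0.15) among those near 0. This list was also written with earlier results known. The ISRE core was present in 24 of 47 of these genes with a promoter (51.1%). For ZT18 against ZT0, DESeq2 called 2 of the 51, Ifi47 and Irgm2 (0.407% of the genes it tested). It also called Slfn9 for ZT18 against ZT6 (0.504%) and in the cosine (1.62%). Over the 4 time points it called Irgm2 and Slfn9 (1.61%). The 5 MHC class I genes outside the members had a median of 0.34, with B2m the highest at 0.92 ± 0.32, and the list of 11 genes that joins them with the immunoproteasome and peptide loading had a median of 0.27. The 7 MHC class II genes had their lowest median deviation in ZT6 replicate 2 (-1.67) and their highest in ZT0 replicate 2 (1.68). That library was also high in B and plasma cell markers. Among the other libraries their median was highest in ZT18 replicate 1 (0.89), and it was -1.15 in ZT0 replicate 1. All 7 were higher at ZT18 than at ZT6, with a median log2 difference of 1.75 and none called by limma (0.0444% of all genes).

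**Figure D5:**
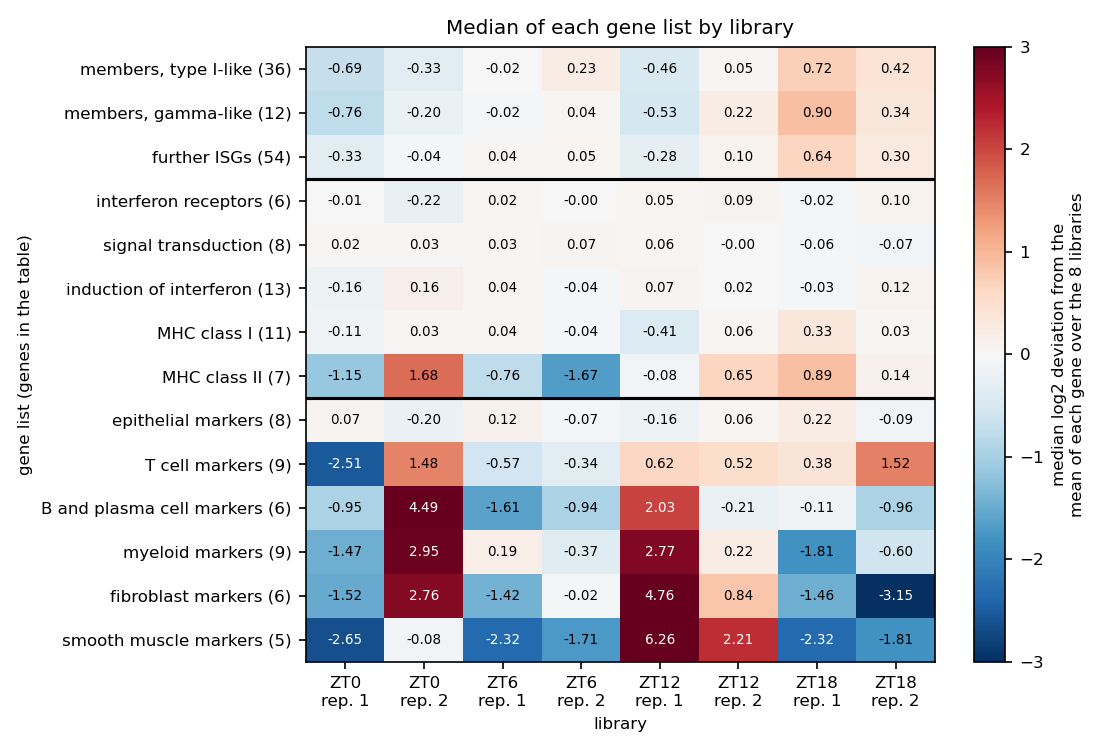
Rows are gene lists with the number of genes in the table, columns are libraries, and each cell prints the median log2 deviation of the list from the mean of each gene; colours saturate beyond 3 in either direction. Members and further interferon-stimulated genes (ISGs) peak in ZT18, receptors and signal transduction stay within 0.22 of 0, and markers of B cells, myeloid cells, fibroblasts and smooth muscle peak in ZT0 replicate 2 or ZT12 replicate 1.

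Markers of other cell types were not absent, and their sums differed between lists and libraries. Summed fibroblast markers, for example, reached 2329 normalised counts in ZT12 replicate 1. In bulk samples fewer cells of a type and less RNA per cell cannot be told apart. Of 10 T cell markers 9 were in the table, and their sum was 14.9 and 232 normalised counts (ZT0), 107 and 69.6 (ZT6), 152 and 159 (ZT12) and 179 and 322 (ZT18). Cd8a had 2.98 and 12.1 at ZT0 and 81.2 and 84.5 at ZT18, while Cd4 was at 0 in both ZT18 libraries. Of 10 myeloid markers 9 were in the table, summing to 820 and 1992 at ZT0 and 1009 and 645 at ZT18. Cd14 alone had 795 and 577 at ZT0 and 942 and 578 at ZT18, and the other 8 summed to 25.8 and 1415 (ZT0), 144 and 118 (ZT6), 572 and 115 (ZT12) and 66.7 and 67.6 (ZT18). C1qc was at 0 in both ZT18 libraries. Of 6 markers of plasmacytoid dendritic cells 5 were in the table, with median deviations between -0.40 and 0.18 over the 8 libraries. They include the member Bst2, and their sum ran from 13690 in ZT12 replicate 2 to 24700 in ZT6 replicate 2. Ly6d of that list was at 0 in both ZT18 libraries, Ccr9 was at 0 in ZT18 replicate 1 and highest of the 8, at 12.9, in ZT18 replicate 2, and Tcf4 ranged from 360 to 519. Bst2 ranged from 183 to 1058. At ZT18 the sum was 19910 and 23160, so nearly all of it came from the remaining gene of the list. Nothing is therefore read from that sum about these cells. The share of mitochondrial reads was 12.2% and 19.8% at ZT0 and 22.2% and 9.8% at ZT18. The part of T cells, of other cells and of the mitochondrial share in the members' values was not tested.

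Without ZT0 replicate 2 and ZT12 replicate 1, the median difference between ZT18 and ZT0 was 1.27 for the type I-like members, and that between ZT12 and ZT0 was 0.66 for the type I-like and 0.78 for the gamma-like members. The 1 remaining library of ZT12 then lay above that of ZT0 in 47 members (51.9% of all genes). Over all 48 members, this ZT0 library was the lowest of the 8 in 22, and this ZT12 library was the higher of its pair in 44. ZT18 lay above ZT0 in 46 (30.0%) and above ZT12 in 35 (28.2%), ZT6 above ZT0 in 42 (39.2%), and ZT12 above ZT6 in 18 (38.1%) and below it in 16 (36.9%). Ddx60 was no longer called for ZT6 against ZT0 (adjusted p 0.428 by limma) or over the 4 time points (0.424), and no other member was called by limma. The median for ZT12 against ZT6 was near 0, at -0.04, for the type I-like members.

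The members with an ISRE core in the promoter had a median log2 difference between ZT18 and ZT0 of 1.27 (18 genes, 0.17 to 2.60), those without it 0.79 (20 genes, -0.01 to 3.52), and those with no promoter entry 1.09 (10 genes). The ranges of the first 2 groups overlapped over most of their length, and Ifi44, with the largest difference of all, held no core in this window. With the GAS letters the median was 0.79 (9 genes) and without them 0.84 (29 genes).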

How the data were processed

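RNA sequencing of mouse colonic crypts at 4 time points, with 2 libraries each, was analysed from 1 deposited table. According to the labels and the methods of the study, the authors aligned reads with STAR to GRCm38 (mm10) and used DESeq2. The kit named in the labels differs from that in the methods, and strand use is not stated. Its library columns hold a signal deposited by the authors, reads divided by a size factor per library. Whole reads came out for 100% of values in each library (tolerance 0.01 reads). Columns with the authors' own log2 fold change, p-value and test score were deposited too and were not used.

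The members, lists and tests were chosen with earlier results of these data known. limma 3.58.1 (R 4.3.3, eBayes with a trend) was fitted to log2(normalised count + 1) of the 13503 genes with a mean of at least 10. Time points were compared by an F-test, by 6 contrasts and by a 24 h cosine. P-values were adjusted by Benjamini-Hochberg over all genes, and calls made under 0.05. A fold change on this scale understates low genes. All 8 libraries were printed for the 2 members of each role with the largest SD. Called members, the 10 outside genes most correlated with the members, and the receptors and transducers were named too. Others were chosen after their values were seen. Alternatives were edgeR 4.0.16, DESeq2 1.42.0, other pseudocounts, filters and scalings, a replicate block and leaving out libraries. The code was tested on simulated data. A count of 0 allows up to 3 reads, or 2.41 to 3.70 normalised counts, by counting error only. Locations come from GENCODE M21 (GRCm38), promoters from RefSeq (GRCm38.p6). An item of the pathway lists is not reported here.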

Additional observations from a re-analysis of the deposited data

How the results depend on the processing

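The number of calls changed with the test, the block and the libraries kept. With the replicate number as a block, limma called 0 members for ZT6 against ZT0 and 0 over the 4 time points. Whether libraries of the same number share a batch is not given in the labels. Correlations of same-numbered deviations ran from -0.29 to 0.22, which cannot decide it. Over the 4 time points 0 members were also called with a pseudocount of 0.1, with TMM, with scaling outside the mitochondrial genome, without the trend and with edgeR. For ZT6 against ZT0, 0 were called without the trend and with only the 4 libraries concerned. DESeq2 called 1 (ZT12 against ZT0), 13 (ZT18 against ZT0), 3 (ZT18 against ZT6), 5 (ZT18 against ZT12), 13 (4 time points) and 2 (cosine). Leaving out each library in turn gave 0 to 1 calls for ZT6 against ZT0 and 0 for the other comparisons. The type I-like median log2 difference ran from 0.063 to 0.51 (ZT12 against ZT0), 0.69 to 1.27 (ZT18 against ZT0), -0.66 to -0.036 (ZT12 against ZT6) and 0.43 to 1.07 (ZT18 against ZT12). The gamma-like median ran from -0.10 to 0.69 (ZT12 against ZT0) and 0.68 to 1.36 (ZT18 against ZT0). The ZT18 against ZT0 difference of Irf1 ran from -0.043 to 0.030, that of Ifi35 from -0.062 to 0.72 and that of Parp12 from -0.0030 to 0.47, each crossing 0. The other 45 members had a positive value under every setting. The setting without ZT0 replicate 2 and ZT12 replicate 1, chosen after seeing the data, gave type I-like medians of 0.66 (ZT12 against ZT0), 1.27 (ZT18 against ZT0) and -0.036 (ZT12 against ZT6), a gamma-like median of 0.78 (ZT12 against ZT0), and 0 calls for ZT6 against ZT0 and over the 4 time points. Counts of members differing 2-fold between replicates stayed within 1.5 times under the pseudocounts, filters and scalings tried. The cause of these shifts was not tested. A count of 0 allows up to 2.41 to 3.70 normalised counts, below the lowest value of a member, 10.9.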
